A study of Mus musculus with 18 samples.

Results

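The genes described here encode the interleukin-1 family cytokines found in macrophages and the inflammasome proteins that process them. They are the cytokine genes Il1a, Il1b, Il33 and Il18, the receptor antagonist gene Il1rn, the sensor gene Nlrp3 and the caspase genes Casp1 and Casp4. They were taken from a mouse expression array by the gene symbol of each probe set, and all 8 were among the 12257 genes tested, of 18193 genes with a probe set of their own. Together they had 10 probe sets, of which Il1rn had 3, and each gene was read from its brightest probe set. The study treated RAW cells, a mouse macrophage-like line, with R848 (resiquimod, an agonist of Toll-like receptor 7) and asked how apilimod, an inhibitor of the lipid kinase PIKfyve, alters the response. There were 4 arms: R848 with apilimod, R848 with API09, R848 alone and culture medium alone. The labels describe API09 as an inactive analog of apilimod, and state a concentration of 1 µM for either compound. For R848 they state 0.1 mM, which is high and could be a slip in the unit. Each arm was represented by 1 array at 1, 3, 7 and 22 h, and medium also by 2 arrays at 0 h, which makes 18 arrays. No arm received apilimod without R848.

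Interleukin-1α and interleukin-1β act through the same receptor, and the product of Il1rn occupies that receptor without signalling. Interleukin-1β and interleukin-18 are made as precursors, which caspase-1 cleaves after a sensor such as NLRP3 has assembled an inflammasome through the adaptor ASC. Mouse caspase-11, the product of Casp4, senses cytosolic lipopolysaccharide and cleaves gasdermin D, and interleukin-33 is a nuclear cytokine released from damaged cells. In macrophages, Toll-like receptor signalling induces Il1b and Nlrp3 transcription, a step called priming. The arrays measured RNA, so neither cleavage nor release was measured. RAW macrophages are known to lack ASC. Of 3 probe sets for its gene, Pycard, the brightest stayed at intensities of 8.36 to 14.3 on all 18 arrays, under the level of 18.1 used as the filter for measurable signal.

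The promoters of 4 members are shown because these genes cover the different responses to apilimod described below: Il1a and Il1b fell, Il1rn rose early, and Casp4 rose late. The sequences are from RefSeq (GRCm38.p6) and hold the 250 bases before an annotated start, 5′ to 3′ on the strand of the gene. The Il1a window is chr2:129309973-129310222 on the minus strand and the Il1b window is chr2:129371140-129371389 on the minus strand. The Il1rn window, at the most upstream of 3 annotated starts, is chr2:24336610-24336859 on the plus strand. That of Casp4, at 1 of 2 starts, is chr9:5308599-5308848 on the plus strand. Capitals mark matches to any of 6 motifs: kappaB (GGGNNNNNCC), AP-1 (TGANTCA), C/EBP (TTNNGNAA), PU.1 (GAGGAA), E-box (CACGTG), each searched on both strands, and the TATA box (TATAAA), searched on the sense strand.
Il1a: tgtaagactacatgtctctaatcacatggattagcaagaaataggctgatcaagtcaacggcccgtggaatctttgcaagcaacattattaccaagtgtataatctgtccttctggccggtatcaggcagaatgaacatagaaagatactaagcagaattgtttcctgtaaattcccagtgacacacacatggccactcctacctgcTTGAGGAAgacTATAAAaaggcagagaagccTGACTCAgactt
Il1b: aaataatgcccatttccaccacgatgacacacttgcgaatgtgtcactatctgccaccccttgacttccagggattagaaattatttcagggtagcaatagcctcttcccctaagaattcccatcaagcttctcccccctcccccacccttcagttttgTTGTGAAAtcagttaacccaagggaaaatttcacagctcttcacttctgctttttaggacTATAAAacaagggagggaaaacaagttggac
Il1rn: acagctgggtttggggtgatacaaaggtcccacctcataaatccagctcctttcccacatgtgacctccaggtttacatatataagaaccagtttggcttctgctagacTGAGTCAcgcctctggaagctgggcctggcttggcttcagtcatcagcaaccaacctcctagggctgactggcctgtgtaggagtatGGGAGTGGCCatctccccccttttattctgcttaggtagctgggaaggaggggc
Casp4: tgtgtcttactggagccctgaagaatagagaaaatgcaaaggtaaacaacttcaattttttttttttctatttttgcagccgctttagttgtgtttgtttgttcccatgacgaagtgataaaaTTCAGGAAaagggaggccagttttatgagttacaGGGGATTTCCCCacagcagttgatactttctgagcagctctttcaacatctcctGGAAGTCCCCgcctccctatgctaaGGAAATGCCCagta
The Il1a and Il1b windows both held TATAAA, which began 32 bases upstream of the start in Il1a and 31 bases upstream in Il1b. The Il1a window also held an AP-1 match (TGACTCA) 12 to 6 bases upstream and a C/EBP match that overlaps a PU.1 match. Casp4 had kappaB matches in 3 places, between 93 and 82, 39 and 30, and 14 and 5 bases upstream. In the Il1rn window shown, a kappaB match lay 54 to 45 bases upstream and an AP-1 match (TGAGTCA) 141 to 135 bases upstream. The other Il1rn starts, not shown, both held C/EBP matches and no AP-1 match. The most downstream of them also held a kappaB match (GGGTTTTTCC) 51 to 42 bases upstream. Which start was used in these cells was not tested. Over the 13 annotated starts of the 8 members, kappaB matches were present at 6, against 45.8% of the 32851 starts in the table. C/EBP matches were present at 10, against 36.8%, TATAAA at 4, against 7.59%, AP-1 at 2, against 6.75%, PU.1 at 3, against 23.3%, and the E-box at 1, against 6.02%. Some of these windows overlap (both of Casp4, and 2 of Il1rn), so a match can count more than once. Counted by gene, 4 of the 8 members held a kappaB match, 6 C/EBP, 3 TATAAA, 2 AP-1, 3 PU.1 and 1 the E-box, each at 1 or more starts. These matches describe letters in a window and were not tested against the expression values. Il1a and Il1b are neighbours on chromosome 2, with 0 protein-coding genes between them, and Casp1 and Casp4 are neighbours on chromosome 9.

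Values are the intensities that the authors deposited, on a linear scale. Differences are on the scale of log2(intensity + 16), which understates the change of dim genes. The R848+API09 and R848 arrays of an hour are called the R848 controls, and their pairs, with the 2 medium arrays at 0 h, supplied the estimate of the spread. Each R848+apilimod or medium value after 0 h is therefore a single array that was assumed to vary as these pairs do. Since no label ties an array to a culture of its own, p-values reflect array-to-array spread that could be technical. The number of arrays limits the precision. In bulk RNA, fewer cells expressing a gene cannot be told apart from less of its RNA per cell. All 8 macrophage markers (Adgre1, Cd68, Csf1r, Itgam, Lyz2, Ptprc, Cd14 and Spi1) exceeded the filter level on every array. Markers of other cell types were mixed. Col1a1, Col1a2 and Pdgfra of fibroblasts, Krt18 and Cdh1 of epithelium, Cd3g of T cells and Ms4a1 of B cells exceeded it on no array. Dcn of fibroblasts, Epcam and Krt8 of epithelium, Cd3e of T cells and Pax5 of B cells exceeded it on all 18, at intensities between 18.9 (Dcn) and 61.0 (Epcam), Cd8a did on 15 and Cd79a on 2, and Lck was not analysed here. At 22 h the stimulated arrays differed in overall brightness: the upper quartile of intensity was 100.9 with R848+apilimod, 87.0 with R848+API09 and 104 with R848, and 110.5 to 119 on the other 15 arrays.

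**Figure D1:**
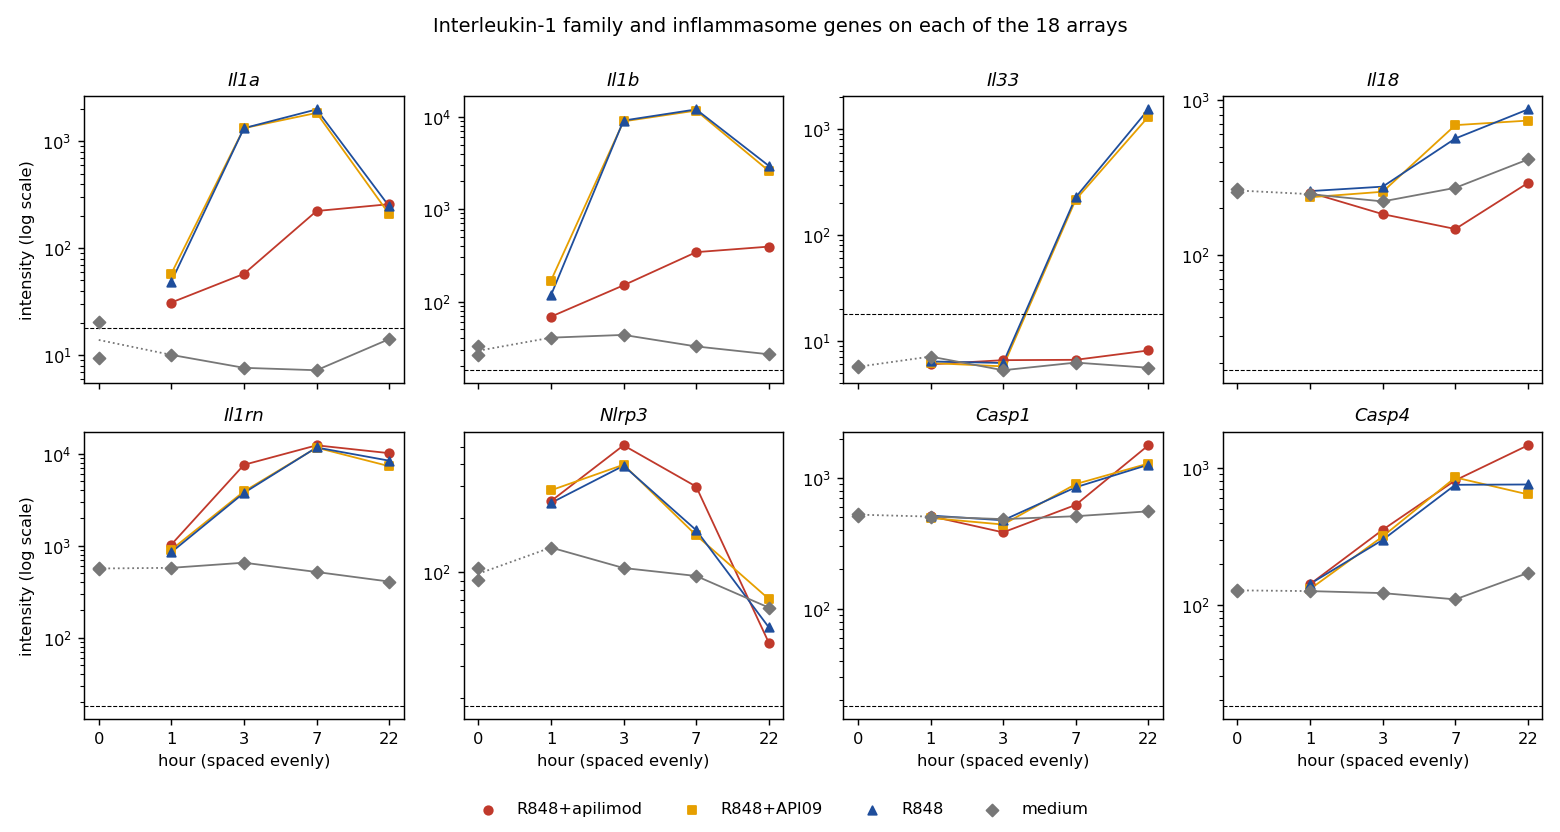
Intensity of the 8 genes (log scale) on each of the 18 arrays at 0, 1, 3, 7 and 22 h, spaced evenly, with 1 point per array. Colours mark R848+apilimod, R848+API09, R848 and medium, the dotted segment starts from the mean of the 2 medium arrays at 0 h, and the dashed line marks the filter level of 18.1. The R848+apilimod points of Il1a, Il1b and Il33 lay far under those of the R848 controls at 7 h, and those of Il1rn at 3 h and Casp4 at 22 h lay above them.

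Il1b, the gene of interleukin-1β, had the largest apilimod difference among the members at 3 and 7 h. It read 68.6, 150.0, 343 and 393 at 1, 3, 7 and 22 h on the R848+apilimod arrays. With R848+API09 it read 168, 8932, 11679.5 and 2599 at the same hours, and with R848 alone 117, 9114, 12028 and 2949.8. Medium arrays held 26.1 and 33.1 at 0 h and 40.7, 43.5, 32.7 and 26.9 at 1, 3, 7 and 22 h. The R848+apilimod array was thus under both R848 controls at every hour and above every medium array. Apilimod lowered Il1b by a log2 difference of -5.77 ± 0.17 (SE) at 3 h (limma, adjusted p = 6.38e-09), -5.05 ± 0.17 at 7 h (adjusted p = 7.55e-09) and -2.77 ± 0.17 at 22 h (adjusted p = 5.04e-07). In intensity plus 16, these are ratios of 0.0184, 0.0302 and 0.147. The narrowing between 7 and 22 h was itself past the threshold, with a difference of differences of 2.28 ± 0.24 (adjusted p = 8.41e-05). It came with lower control values at 22 h than at 7 h, while the R848+apilimod array read 393 at 22 h and 343 at 7 h. Against medium, R848+apilimod still gave 1.48 ± 0.19 at 3 h, 2.88 ± 0.19 at 7 h and 3.26 ± 0.19 at 22 h, each past the threshold.

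Il1a, the gene of interleukin-1α, fell as Il1b did at 3 and 7 h but not at 22 h. On the R848+apilimod arrays it read 31.1, 57.6, 223 and 258 at 1, 3, 7 and 22 h. The R848+API09 arrays gave 58.0, 1328, 1843 and 208, and the R848 arrays 48.8, 1328, 1988 and 247. Medium values were 20.3 and 9.49 at 0 h and 10.1, 7.62, 7.23 and 14.1 afterwards, and 1 of these 6 arrays exceeded the filter level. The R848+apilimod array lay under both controls at 1, 3 and 7 h and above both at 22 h. The log2 difference from the controls was -4.19 ± 0.18 at 3 h (adjusted p = 9.43e-08) and -3.01 ± 0.18 at 7 h (adjusted p = 3.86e-07). At 22 h it was 0.18 ± 0.18, with a 95% interval of -0.21 to 0.57 (adjusted p = 0.488). Il1b was still lowered at that hour. The change of the apilimod difference between 7 and 22 h was 3.19 ± 0.25 (adjusted p = 1.75e-05). Between 3 and 7 h it was 1.18 ± 0.25 (adjusted p = 0.0214). That call was lost in 5 of 19 alternative settings, with a limma adjusted p of up to 0.176. Among these were the fits without either control array of 3 h and without the R848+API09 array of 7 h.

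Il33 gave the clearest separation at 22 h, because its signal was seen in the R848 controls alone. Its intensity was 5.99, 6.56, 6.61 and 8.10 at 1, 3, 7 and 22 h with R848+apilimod. With R848+API09 it was 6.16, 5.73, 216 and 1313, and with R848 alone 6.38, 6.17, 228 and 1540.0. Medium arrays lay between 5.26 and 7.09. Only the 4 control arrays of 7 and 22 h exceeded the filter level, so the gene entered the tests through them and had to differ there. The log2 difference of R848+apilimod from the controls was -3.39 ± 0.10 at 7 h (adjusted p = 4.40e-09) and -5.90 ± 0.10 at 22 h (adjusted p = 1.03e-10). Adding 1 in place of 16 before the logarithm gave -4.87 and -7.29. Against medium, R848+apilimod differed by 0.03 ± 0.12 at 7 h and 0.16 ± 0.12 at 22 h, with 95% intervals of -0.23 to 0.28 and -0.10 to 0.42. With 1 added in place of 16, the 22 h difference from medium was 0.47 and passed (adjusted p = 0.0159). The R848+apilimod array of 22 h, at 8.10, was above every medium array but under the filter level, so whether Il33 was raised there depends on the added value.

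Il18, whose product needs cleavage by caspase-1, was measured in unstimulated cells too, and with apilimod it went under the medium level. It read 253, 184, 147 and 292 at 1, 3, 7 and 22 h with R848+apilimod, 236, 256, 689 and 737 with R848+API09, and 259, 276, 565 and 871 with R848. The medium arrays held 255 and 267 at 0 h and 247, 222, 271 and 414 later. At 3, 7 and 22 h the R848+apilimod array was under both controls and under the medium array of its hour. The log2 difference from the controls was -1.97 ± 0.13 at 7 h (adjusted p = 1.11e-06) and -1.41 ± 0.13 at 22 h (adjusted p = 1.46e-05). At 3 h it was -0.50 ± 0.13 (adjusted p = 0.0390), which missed the threshold against either control array alone, with an adjusted p of 0.192 against R848+API09 and 0.0881 against R848. Leaving out either array of 1 h or either medium array of 0 h also lost this call, with adjusted p of 0.0601 and 0.0676. Relative to medium, R848+apilimod gave -0.82 ± 0.15 at 7 h (adjusted p = 0.00182) and -0.48 ± 0.15 at 22 h (adjusted p = 0.0233), while the R848 controls gave 1.16 ± 0.13 and 0.93 ± 0.13. These comparisons share the medium arrays.

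Il1rn, which encodes the receptor antagonist, moved the opposite way from the agonists at 3 h. The R848+apilimod arrays read 1030.3, 7583, 12346 and 10145 at 1, 3, 7 and 22 h. Values were 906, 3895, 11642 and 7322 with R848+API09, 850.5, 3755, 11694 and 8409 with R848, and 408 to 654 on the 6 medium arrays. The R848+apilimod array lay above both controls at every hour, and apart from them mainly at 3 h. The log2 difference was 0.98 ± 0.10 at 3 h (adjusted p = 5.85e-05), 0.08 ± 0.10 at 7 h (95% interval -0.14 to 0.30) and 0.37 ± 0.10 at 22 h (adjusted p = 0.0140). From 3 to 7 h the difference fell by 0.90 ± 0.14 (adjusted p = 0.00352). The 3 probe sets of Il1rn differed in the size of the effect. At 3 h they gave 0.98, 0.76 and 1.40, each past the threshold, and at 22 h they gave 0.37 (adjusted p = 0.0192), 0.28 (adjusted p = 0.0783) and 0.95 (adjusted p = 7.61e-05) in a fit with all 3 as separate entries. The rise at 22 h was thus seen with 2 of the 3 probe sets.

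Nlrp3, the inflammasome sensor gene, was highest at 3 h in every stimulated arm and was raised by apilimod at 7 h. Its intensity was 249, 508, 299 and 40.7 at 1, 3, 7 and 22 h with R848+apilimod, 286, 396, 161 and 71.2 with R848+API09, and 243, 391, 172 and 49.5 with R848. Medium arrays gave 90.9 and 106 at 0 h and 137, 106, 95.4 and 63.7 later. The R848+apilimod array lay between the controls at 1 h, above both at 3 and 7 h, and under both at 22 h. The log2 difference from the controls was 0.35 ± 0.16 at 3 h (adjusted p = 0.259), 0.79 ± 0.16 at 7 h (adjusted p = 0.00368) and -0.42 ± 0.16 at 22 h (adjusted p = 0.0622). The change from 7 to 22 h was -1.21 ± 0.22 (adjusted p = 0.00327). Against R848+API09 alone the 22 h difference was -0.62 ± 0.12 and passed (adjusted p = 0.00251), and against R848 alone it was -0.21 ± 0.12 and did not (adjusted p = 0.209). The 2 controls of that hour lay 0.41 apart in log2.

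Casp1, which encodes the protease that matures interleukin-1β, differed between R848+apilimod and the R848 controls by less than a log2 unit at every hour. It read 511, 384, 623 and 1776 at 1, 3, 7 and 22 h with R848+apilimod, 495, 441, 899 and 1289 with R848+API09, and 516, 475, 849 and 1262 with R848. The medium arrays lay between 485 and 556. With apilimod it was under both controls at 7 h and above both at 22 h, and all 3 stimulated arrays of 22 h were above every medium array. Its log2 difference was -0.48 ± 0.09 at 7 h (adjusted p = 0.00262) and 0.47 ± 0.09 at 22 h (adjusted p = 0.00192), and it turned by 0.95 ± 0.13 between these hours (adjusted p = 4.61e-04).

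Casp4, the gene of caspase-11, lay near the controls up to 7 h and above them at 22 h. The R848+apilimod arrays gave 141, 354, 815 and 1471 at 1, 3, 7 and 22 h, the R848+API09 arrays 130.2, 316, 855 and 643, the R848 arrays 142, 298, 756 and 759.9, and the 6 medium arrays 109 to 171. At 7 h the R848+apilimod array lay between the controls, and at 22 h it was above both. The log2 difference was 0.19 ± 0.12 at 3 h, 0.02 ± 0.12 at 7 h (95% interval -0.24 to 0.28) and 1.06 ± 0.12 at 22 h (adjusted p = 4.73e-05). The change from 7 to 22 h was 1.04 ± 0.17 (adjusted p = 0.00143).

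**Figure D2:**
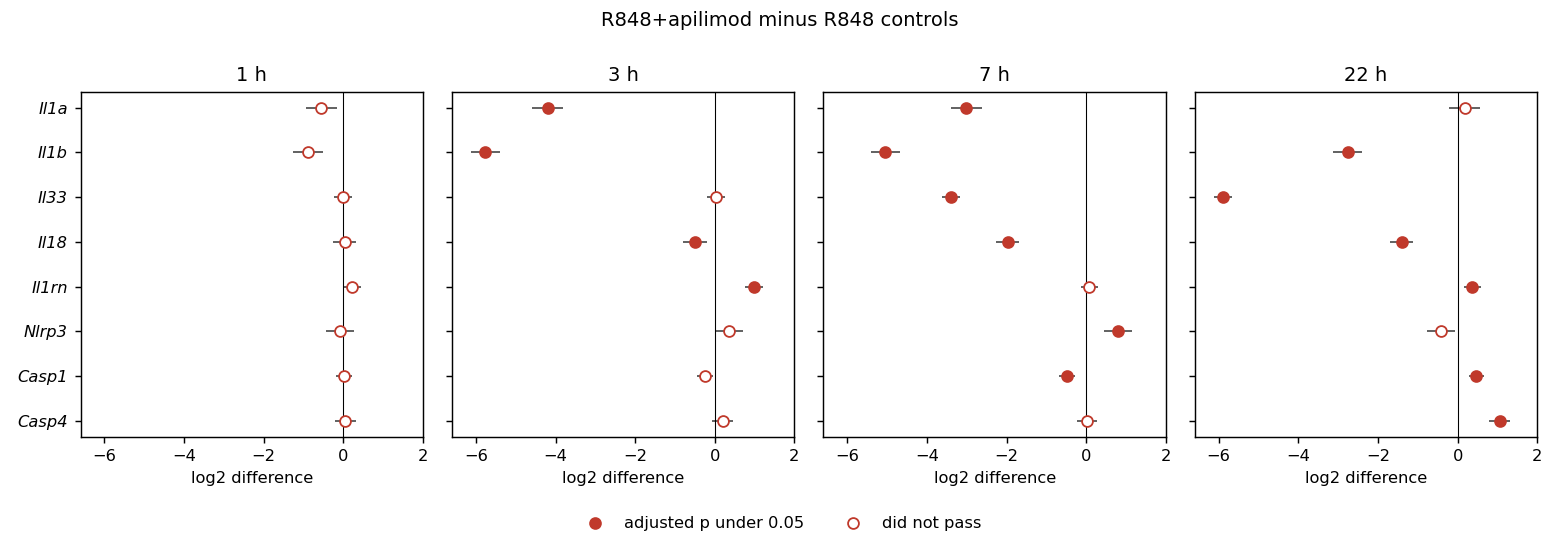
Log2 difference of R848+apilimod from the R848 controls for the 8 genes at 1, 3, 7 and 22 h, with 95% intervals from the fit across all genes. Filled points have an adjusted p under 0.05: none at 1 h, 4 at 3 h and 6 each at 7 and 22 h.

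Counted by hour, apilimod changed 0 of the 8 members at 1 h, 4 at 3 h, 6 at 7 h and 6 at 22 h. The share of all 12257 genes called was 0.00% at 1 h, 9.19% at 3 h, 19.6% at 7 h and 34.5% at 22 h. At 1 h limma called no gene, 165 genes had an unadjusted p under 0.05, and among them were 3 members: Il1a at -0.56 ± 0.18, Il1b at -0.89 ± 0.17 and Il1rn at 0.23 ± 0.10. At 3 h Il1rn rose and Il1a, Il1b and Il18 fell, beside 5.07% of all genes higher and 4.12% lower. At 7 h Nlrp3 rose and Il1a, Il1b, Il18, Il33 and Casp1 fell, beside 9.81% higher and 9.81% lower. At 22 h Il1rn, Casp1 and Casp4 rose and Il1b, Il18 and Il33 fell, beside 20.2% higher and 14.3% lower. Il33 entered the tests only through the control arrays of 7 and 22 h, so its calls at those hours followed from the filter, and without it the counts are 5 and 5. The apilimod difference itself changed from 3 to 7 h in 4 members, beside 4.76% of all genes, and from 7 to 22 h in 6, beside 20.1%. Both counts include Il33, whose changes rest on the same control arrays through which it entered the tests. The R848+API09 array of 22 h was the dimmest in its upper quartile and had an 18S control signal of 10.53 in log2, against 9.45 with R848+apilimod and 8.69 with R848 at that hour. Quantile normalization, which removes the difference in brightness, kept all 6 calls at 22 h, with -2.72 for Il1b, -5.94 for Il33 and 1.00 for Casp4. The part of the 18S signal in the member values was not tested.

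Set against R848+API09 alone, hour by hour at the shared dose of 1 µM, the members gave like values. In these 4 comparisons Il1b differed by -1.12 ± 0.14 at 1 h (adjusted p = 0.151), -5.75 ± 0.20 at 3 h, -5.03 ± 0.20 at 7 h and -2.68 ± 0.19 at 22 h. Casp4 gave 1.17 ± 0.10 at 22 h, and Il33 -3.36 ± 0.12 at 7 h and -5.79 ± 0.08 at 22 h. Il33 entered the tests only through the control arrays of 7 and 22 h, R848+API09 among them, so its differences here followed from the filter. The R848+API09 and R848 arrays of an hour differed by at most 0.47 in log2 for any member, and that value was of Il1b at 1 h. Over all hours, with a block for the hour, R848+API09 minus R848 lay between -0.09 (Il33) and 0.14 (Nlrp3). The intervals of that contrast were wide, for example -1.93 to 2.04 for Il1b, and the smallest, of Casp1, was -0.52 to 0.50. It called 0 genes in limma (0.00%), 182 had an unadjusted p under 0.05, and 0 members were among those. In the same fit R848+apilimod minus R848+API09 also called 0 genes (0.00%), with 1613 at an unadjusted p under 0.05, 4 of them members. Il1b was lowest at -3.64 ± 0.92, with a 95% interval of -5.63 to -1.66 (adjusted p = 0.123). This fit removes the change with time that the arms share, but counts arm differences that vary with the hour as spread. Without the arrays of 1 h, Il1b (-4.48, adjusted p = 0.00159) and Il18 (-1.28, adjusted p = 0.0191) passed.

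**Figure D3:**
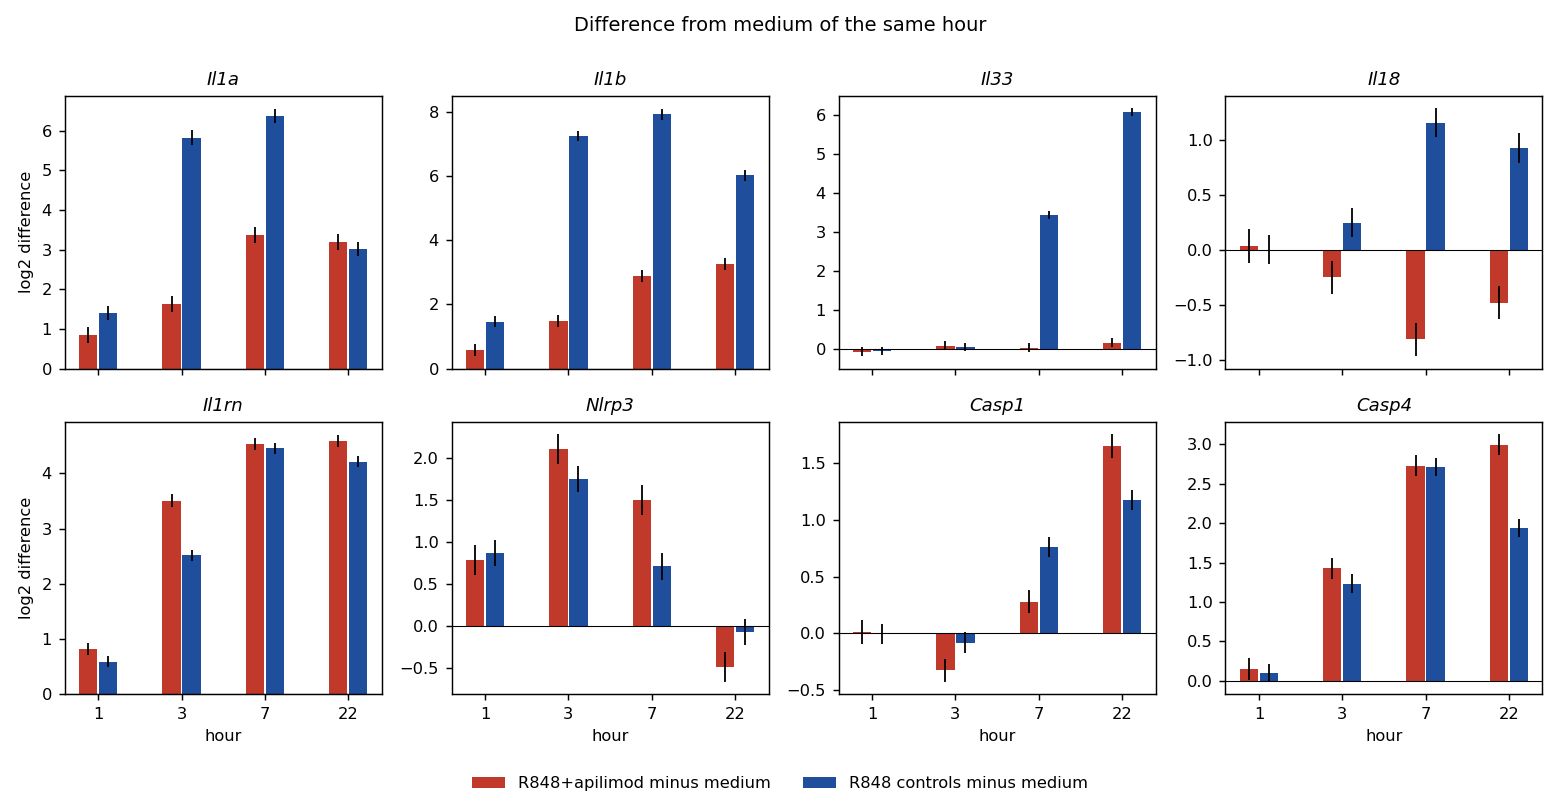
Log2 difference from medium of the same hour for the 8 genes, with R848+apilimod to the left of the R848 controls and standard errors of the fit. With R848+apilimod, Il33 bars are near 0 at all hours and Il18 bars are negative at 3, 7 and 22 h. Il18 bars of the R848 controls are positive at these hours, and Il1rn bars are tall in both sets from 3 h on.

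R848 raised the members at different hours. Both sets of differences from medium share the medium array of each hour, so they are given side by side and were not compared with each other. With R848+apilimod, 1 member differed from medium at 1 h (Il1rn, 0.82 ± 0.11), 5 at 3 h, 6 at 7 h and 7 at 22 h, beside 0.604%, 16.5%, 31.3% and 47.4% of all genes. With the R848 controls 4 members differed at 1 h, 5 at 3 h, 8 at 7 h and 7 at 22 h, beside 0.702%, 15.4%, 29.8% and 45.7% of all genes. Il33 is among the 8 and the 7. It entered the tests only through the control arrays of 7 and 22 h, so these calls followed from the filter. The 4 of the first hour were Il1a at 1.41 ± 0.18, Il1b at 1.47 ± 0.17, Il1rn at 0.60 ± 0.10 and Nlrp3 at 0.87 ± 0.16, and the calls of the last 2 depended on single arrays. Without the R848+API09 or the R848 array of 1 h, the adjusted p was 0.165 or 0.0629 for Il1rn and 0.260 or 0.0581 for Nlrp3, and Nlrp3 was also lost without either control array of 3 h (0.0674) or of 7 h (0.0617) and with quantile normalization (0.282). At 3 h Casp4 joined them, with 1.43 ± 0.13 under R848+apilimod and 1.23 ± 0.12 in the controls. At 7 h Il18, Casp1 and Il33 were also higher in the controls, by 1.16 ± 0.13, 0.76 ± 0.09 and 3.42 ± 0.10. At 22 h Nlrp3 differed from medium by -0.49 ± 0.18 with R848+apilimod, which passed (adjusted p = 0.0440), and by -0.08 ± 0.16 in the controls, which did not. That call was lost without either medium array of 0 h (adjusted p = 0.0521), without either control array of 3 h (0.0630) or 7 h (0.0589), and with quantile normalization (0.213). At that hour Casp1 rose by 1.65 ± 0.10 with R848+apilimod and 1.17 ± 0.09 in the controls, and Casp4 by 2.99 ± 0.13 and 1.94 ± 0.12.

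In unstimulated cells 4 members differed between 22 and 0 h in medium, beside 22.0% of all genes. Il18 rose by 0.63 ± 0.13 (adjusted p = 0.00688) and Casp4 by 0.38 ± 0.12 (adjusted p = 0.0384), and Il1rn fell by 0.46 ± 0.10 and Nlrp3 by 0.52 ± 0.16. Without the first or the second medium array of 0 h, the adjusted p was 0.134 or 0.123 for Casp4 and 0.0574 or 0.175 for Nlrp3. Without either control array of 3 h it was 0.0589 for Casp4 and 0.0580 for Nlrp3, without either of 1 h it was 0.0547 for Casp4, and without either of 7 h it was 0.0524 for Nlrp3. Il1a, Il1b, Il33 and Casp1 gave -0.01, -0.08, -0.01 and 0.08, and did not pass.

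Over the 18 arrays, the genes whose log2 values were most like each member differed between the members. These are descriptions, since the arrays share hours and arms. Il1a had a Pearson r of 0.970 with Fas, 0.969 with Il1b and 0.967 with Ccl5, and Il1b had 0.979 with Ccl5. Il1rn was most like Csf3 (0.988) and Ccl2 (0.973), Casp4 most like Gch1 (0.981) and Plek (0.980), and Casp1 most like Zbtb7b (0.975) and Cd53 (0.972). The nearest genes of Il33 were Wfdc21 (0.996) and Ppic (0.985), those of Il18 were Fcgr1 (0.947) and Cdk2ap2 (0.941), and those of Nlrp3 were Kdm6b (0.932) and Mapk6 (0.911). Among the members themselves r was 0.944 between Il1rn and Casp4, 0.899 between Il18 and Il33, and -0.66 between Casp1 and Nlrp3.

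Of 9 genes for receptors, decoys and binding proteins of the family, 6 were tested, and apilimod raised 0 and lowered 2, 2 and 1 of them at 3, 7 and 22 h, where 4.12%, 9.81% and 14.3% of all genes were lower. The median of the 6 was -0.02, -0.15 and -0.02, against -0.03, -0.02 and 0.03 for all genes. Il18rap, a signalling subunit of the interleukin-18 receptor, read 62.2, 41.6, 16.7 and 29.4 at 1, 3, 7 and 22 h with R848+apilimod. It read 53.0, 106, 106 and 71.4 with R848+API09 and 61.4, 121, 97.7 and 110.0 with R848. It lay under both controls from 3 h on, by -1.17 ± 0.18 at 3 h, -1.85 ± 0.18 at 7 h and -1.21 ± 0.18 at 22 h. The R848+apilimod reading of 16.7 at 7 h was under the filter level, so that difference has no firm size. Against medium, R848+apilimod gave -1.52 ± 0.21 for Il18rap at 7 h and -0.66 ± 0.21 at 22 h, both past the threshold. Il1rap, the subunit shared by receptors for interleukin-1 and interleukin-33, fell by 0.74 ± 0.15 at 3 h and 0.93 ± 0.15 at 7 h. The other chain of the interleukin-18 receptor, Il18r1, did not exceed the filter level on any array, and the receptor gene Il1rl1 was not analysed here. Of 5 other ligand genes only Il1f10 was tested, and it was called in none of the hours.

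Of 21 further genes for inflammasome sensors, adaptors and effectors, 14 were tested. Apilimod raised 0 and lowered 2 at 3 h, raised 3 and lowered 4 at 7 h, and raised 5 and lowered 2 at 22 h, where 9.19%, 19.6% and 34.5% of all genes were called in either direction. Their median was -0.10, -0.14 and 0.20 at these hours, against -0.03, -0.02 and 0.03 for all genes. Ninj1, whose product ruptures the plasma membrane in lytic death, read 2597, 4169.9, 4364 and 5186 with R848+apilimod, 2561, 3669.9, 2026 and 2756 with R848+API09, and 2592, 3749, 2052 and 2904 with R848. It rose by 1.09 ± 0.08 at 7 h and 0.87 ± 0.08 at 22 h. Panx1, a channel subunit that releases ATP, rose by 0.63 ± 0.10 at 7 h and 1.30 ± 0.10 at 22 h, to an intensity of 309 at 22 h with R848+apilimod against 114 with R848+API09 and 118 with R848. Nek7, which encodes a kinase that binds NLRP3, was above the R848 controls by 0.60 ± 0.15 at 7 h but not above medium. Against medium of that hour, the R848 controls gave -0.98 ± 0.15 for Nek7 (adjusted p = 4.58e-04). R848+apilimod gave -0.38 ± 0.17 against medium, which did not pass (adjusted p = 0.123). Txnip, an inhibitor of thioredoxin, fell at 3, 7 and 22 h (-0.37 ± 0.09, -0.65 ± 0.09 and -1.04 ± 0.09). Casp8 fell by 0.35 ± 0.10 at 3 h and 0.59 ± 0.10 at 7 h, and Gbp2, a guanylate-binding protein gene, passed at 22 h with 0.55 ± 0.13. Gbp2 read 25.6 there with R848+apilimod, against 11.1 with R848+API09 and 14.0 with R848, both under the filter level, so that difference has no firm size. Gsdmd, which encodes the pore-forming substrate of caspase-1 and caspase-11, fell by 0.48 ± 0.10 at 7 h and 0.38 ± 0.10 at 22 h. Gsdmd was added to the named genes after its values were seen.

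Of 11 genes for transcription factors and RNA-binding proteins that act on Il1b, 9 were tested. Apilimod raised 2 and lowered 3 at 3 h, raised 3 and lowered 3 at 7 h, and raised 1 and lowered 4 at 22 h, with list medians of 0.18, 0.09 and -0.19. The same shares and medians of all genes apply. Atf3, a transcription factor that restrains Toll-like receptor responses, read 1724, 2226, 2939 and 2558 at 1, 3, 7 and 22 h with R848+apilimod. The R848+API09 arrays gave 1240.3, 768, 591 and 1406, and the R848 arrays 954, 688, 552 and 1329. It rose by 1.59 ± 0.14 at 3 h, 2.33 ± 0.14 at 7 h and 0.90 ± 0.14 at 22 h. Zfp36, which encodes tristetraprolin, a protein that destabilises cytokine mRNAs, fell at 3, 7 and 22 h (-0.93 ± 0.10, -2.73 ± 0.10 and -1.61 ± 0.10). Cebpd, a C/EBP family activator, fell by 0.56 ± 0.11 at 3 h and by 2.02 ± 0.11 at 22 h. At 7 h Cebpd was also under both controls, at 934 with R848+apilimod, 3539 with R848+API09 and 4032 with R848. Nfkbiz, an atypical IκB protein that acts in the nucleus, fell by 1.14 ± 0.09 at 7 h and 1.42 ± 0.09 at 22 h. Cebpb, another C/EBP family gene, rose by 1.08 ± 0.11 at 3 h. The shared direction of Zfp36, Cebpd and Il1b is given as a description and was not tested.

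**Figure D4:**
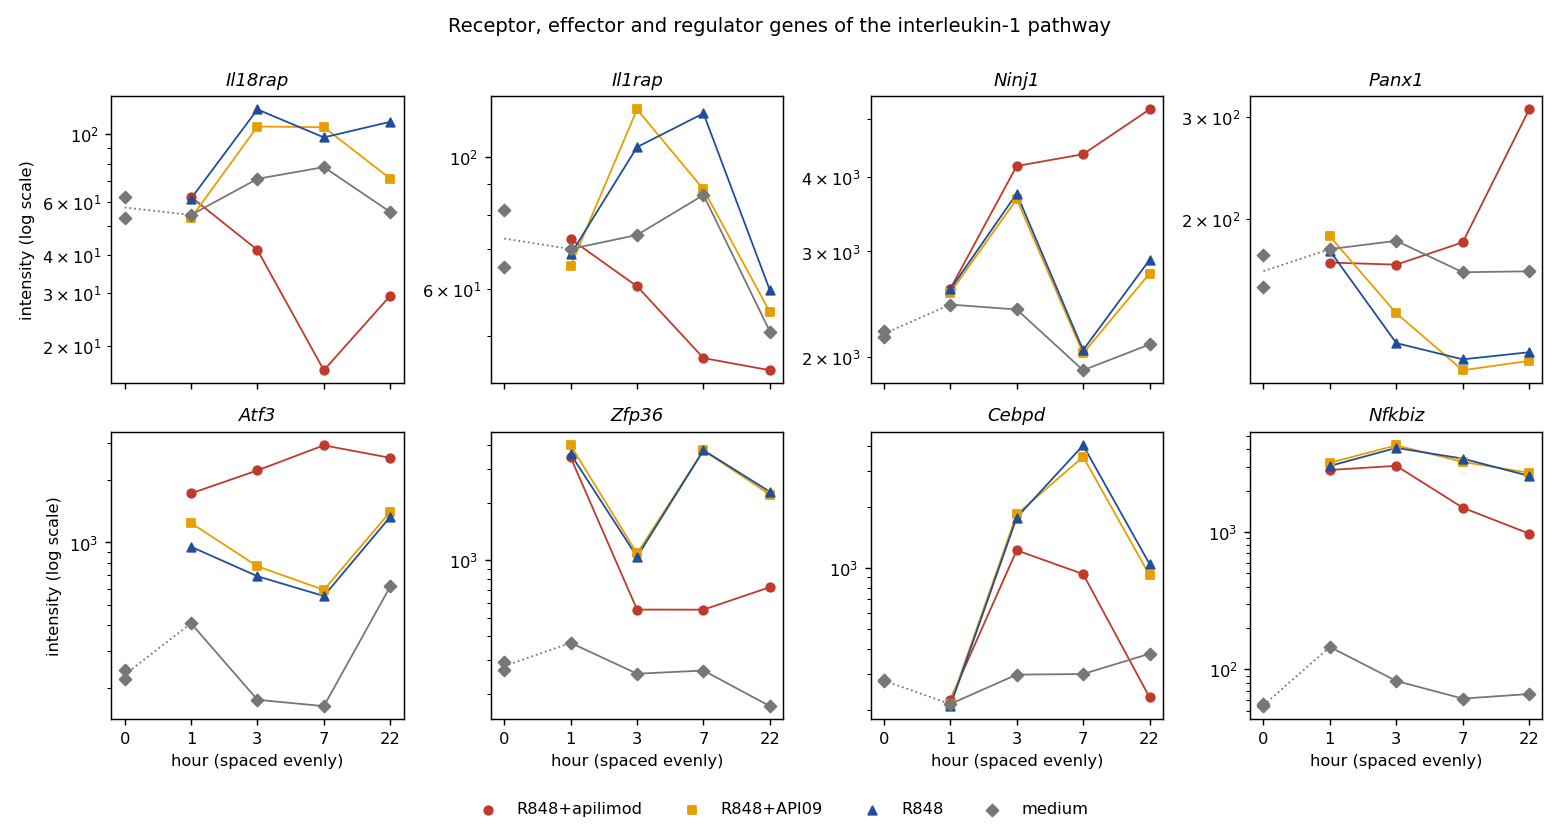
Intensity (log scale) of 8 genes from the receptor, inflammasome and regulator lists on each of the 18 arrays at 0, 1, 3, 7 and 22 h, spaced evenly, coloured by R848+apilimod, R848+API09, R848 and medium. With R848+apilimod the Il18rap, Il1rap, Zfp36, Cebpd and Nfkbiz points fall under the R848 controls at 7 h, and those of Ninj1, Panx1 and Atf3 lie above them.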

How the data were processed

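Expression was measured on 1-colour Affymetrix mouse 430 2.0 arrays after amplification with a NuGEN system, per the labels' protocols, in 18 samples of RAW cells. The deposited values are linear intensity values, 1 per probe set and array. The median intensity was 17.5 to 19.2 on all arrays, so they were used as already normalized between arrays. The method of background correction, summarisation and normalization is not given in the sources used here. Per the submitters' processing notes limma was used, at a version and step they leave out.

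Of 45101 probe sets, 34958 carried 1 gene symbol, and 34754 of these were matched to a RefSeq gene by their Entrez identifier and took its symbol. Probe sets brighter than 18.1, the overall median intensity, on 3 or more arrays were kept, and each gene took its kept probe set with the highest mean. Tests were run on log2(intensity + 16) with limma 3.58.1 in R 4.3.3, with moderated variances, Benjamini-Hochberg adjustment over 12257 genes, and a two-sided adjusted p threshold of 0.05. Tables were prepared with Python 3.11.15. One fit gave every arm and hour a mean, with R848+API09 and R848 sharing 1 mean per hour. A second had terms for arm and for hour. Samples were grouped by their titles.

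The members, the gene lists and the tests were chosen with earlier results of these data known. The text names all 8 members, in each further list up to 4 called genes per comparison with the largest difference, Pycard, and the 3 genes most like each member, from which some are printed. Alternatives were quantile normalization, median centring, a pseudocount of 1, no filter, a filter at the 75th percentile, another probe set, the mean of probe sets, trended robust variances, a minimum log2 difference of 1, no hour block, the compared arms alone, and leaving out arrays or hours. Scripts were tested on simulated data.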

Additional observations from a re-analysis of the deposited data

Results flagged for a closer look

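The apilimod difference (R848+apilimod minus the R848 controls, log2) was compared between hours in the same limma fit, and 10 of the 16 comparisons over the 8 members were past an adjusted p of 0.05, beside 4.76% of all genes for 7 h minus 3 h and 20.1% for 22 h minus 7 h. From 3 to 7 h it changed by 1.18 for Il1a, -0.90 for Il1rn, -1.47 for Il18 and -3.43 for Il33. The value of Il1a lost the threshold in 5 of 19 alternative settings, among them those without either control array of 3 h or without the R848+API09 array of 7 h. From 7 to 22 h the change was 3.19 for Il1a, 2.28 for Il1b, -2.50 for Il33, 0.95 for Casp1, 1.04 for Casp4 and -1.21 for Nlrp3. Both steps share the arrays of 7 h. Il33 entered the tests only through the control arrays of 7 and 22 h. Its changes, counted among the 10, rest on the same arrays that the filter used.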

How the results depend on the processing

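Of 1438 recomputed values of the 76 member differences past the threshold, 1344 kept sign and call, 94 kept the sign and missed the threshold, and 0 turned sign. Of 1250 values of the 68 differences not past it, 33 passed and 30 turned sign. Among the first, Il33 with R848+apilimod over medium at 22 h passed with a pseudocount of 1 (0.47). No paired analysis was possible because only the medium arrays of 0 h carry replicate numbers in the labels; arms were matched by hour instead. The spread within hours rests on 5 pairs of arrays, and dim genes (Il33, and Il1a in medium) depend on the added 16.

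The number of members past the threshold moved as follows. A minimum log2 difference of 1 left 2 for the R848 controls over medium at 1 h and 2 for R848+apilimod over the R848 controls at 3 h. It left 0 for R848+apilimod over medium at 1 h and for medium at 22 over 0 h. The last of these gave 2 with a pseudocount of 1 and 2 without the filter. Leaving out 1 array gave 2 to 4 for the R848 controls at 1 h, 1 to 2 for R848+apilimod over medium at 1 h and 2 to 4 for medium at 22 over 0 h. Over all hours, leaving out arrays or an hour gave 0 to 2 for R848+apilimod over R848+API09 and 0 to 4 for R848 over medium (0 without 3, 7 or 22 h, 4 without 1 h, 1 without either medium array of 0 h), where 3 passed in the full fit (Il1a, Il1b and Il1rn, beside 0.995% of all genes). That count was 1 without the filter, 0 without the hour block and 0 with the compared arms alone.

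The differences that turned sign did not pass in either form. With median centring, Il18 was 0.0053 and Casp1 0.0016 for the R848 controls at 1 h. Quantile normalization gave 0.15 for Nlrp3 in the controls over medium at 22 h and -0.0011 for Casp1 in R848+apilimod over medium at 1 h. Without single arrays the ranges were -0.062 to 0.061 for Il18 and -0.034 to 0.026 for Casp1 (R848 controls, 1 h), -0.28 to 0.13 for Nlrp3 (R848 controls, 22 h), -0.030 to 0.093 for Il18, -0.015 to 0.045 for Casp1, -0.0062 to 0.11 for Casp4 and -0.19 to 0.031 for Nlrp3 (R848+apilimod over controls, 1 h), -0.068 to 0.11 for Casp4 (7 h), and -0.27 to 0.24 for Il1a and -0.19 to 0.027 for Il1b (medium, 22 over 0 h, where a pseudocount of 1 gave 0.019 for Il1a). Over all hours they were -0.22 to 0.10 for Casp1 and -0.15 to 0.33 for Nlrp3 (R848+apilimod over R848+API09). For R848+API09 over R848 they were -0.11 to 0.028 for Il1a, -0.084 to 0.13 for Il1b, -0.051 to 0.045 for Il1rn, -0.15 to 0.017 for Il18, -0.044 to 0.017 for Casp1 and -0.090 to 0.047 for Casp4. That contrast also gave 0.0045 for Il1a, 0.025 for Casp1 and 0.016 for Casp4 with quantile normalization, and 0.021 and 0.088 for Il1rn with the mean over probe sets and the second probe set.

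The count over all genes for R848+apilimod over the R848 controls was 1126, 2406 and 4232 at 3, 7 and 22 h and ranged over 272 to 1870, 552 to 3541 and 614 to 5859, with the lowest of each from the minimum difference of 1. For R848 over medium over all hours it was 122 and ranged over 11 to 1164, with the highest without the arrays of 1 h, which also gave 545 in place of 0 for R848+apilimod over R848+API09. For medium at 22 over 0 h it was 2696 and ranged over 156 to 4315. The causes were not tested.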
